A study of Rattus norvegicus with 24 samples.

Results

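Serpina3n, Clu and Mt2A are 3 of the 1422 named genes measured on cDNA arrays of rat kidney. They were taken by gene symbol, and each symbol has 2 probe identifiers in the array annotation, 1 with values and 1 without, so that 3 of 1766 measured probes are described. They were chosen because earlier results from the same table placed them on the positive side of the ratio, Serpina3n in SS at both times and in SS-13BN/Mcw overnight, Mt2A in SS overnight, and Clu in SS-13BN/Mcw overnight. Their group values are therefore given as a description with no test. Differences between strains and between times were tested, but they are built from the same group values.

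Serpina3n encodes a secreted inhibitor of serine proteases of the acute-phase type, related to human alpha-1-antichymotrypsin. Clu encodes clusterin, or apolipoprotein J, a secreted chaperone that binds misfolded proteins and lipids. Tubular injury in the rat kidney is known to raise it. Mt2A encodes a small, cysteine-rich metallothionein that binds zinc and copper and is a classic target of metals, glucocorticoids and oxidative stress. All of them are used as readouts of stressed or injured tissue, and none of the genes lies on chromosome 13, the chromosome that differs between the strains.

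Total RNA of kidney was compared within each of 2 strains. SS is the Dahl rat whose blood pressure rises with salt, and SS-13BN/Mcw is that strain carrying chromosome 13 of the Brown Norway rat. Each of 24 arrays carried a rat of the group written LS (low salt) and a rat of the group written HS (high salt) of 1 strain, in Cy5 and Cy3. The 4 groups were SS at 3 days, SS overnight, SS-13BN/Mcw at 3 days and SS-13BN/Mcw overnight, each of 3 rat pairs hybridised in both dye orientations, so that a strain's controls share its genotype. Titles repeat rats 1 to 3 of a strain at both times, so the times of a strain are not independent. Age and sex were not given in the sources used here.

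Every value below is a log ratio between the 2 rats of a pair, in the units of the deposited table, with the median of each array at 0. Its log base and its numerator are not stated, so no fold and no direction with salt is given, and genes are said to lie on the positive or the negative side. A pair's value is the mean of its 2 arrays. Arrays held values for 877 to 1412 probes. Precision is limited by the number of rat pairs, 3 in each group, since the 2 arrays of a pair repeat the same rats. Over 10 proximal tubule markers the mean was negative in every pair of all 4 groups, and a different number of cells of a type and a different amount of RNA per cell cannot be told apart in kidney RNA.

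No start region was available for Clu, so the regions just before the start of transcription are shown for Serpina3n and Mt2A only. Both are RefSeq sequence of build GRCr8 with 250 bases before and 50 bases after the start, 5′ to 3′ on the strand of the gene. Serpina3n is chr6:129088142-129088441 on the plus strand, with capitals at a match to the STAT letters TTCNNNGAA. Mt2A is chr19:10838659-10838958 on the minus strand, with capitals at matches to the core of the metal response element, TGCACNC or TGCGCNC.
Serpina3n: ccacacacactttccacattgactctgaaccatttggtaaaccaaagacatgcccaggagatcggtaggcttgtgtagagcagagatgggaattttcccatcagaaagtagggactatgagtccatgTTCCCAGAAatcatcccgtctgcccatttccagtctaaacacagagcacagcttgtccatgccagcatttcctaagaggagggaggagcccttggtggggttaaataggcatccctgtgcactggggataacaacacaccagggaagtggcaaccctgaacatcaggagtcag
Mt2A: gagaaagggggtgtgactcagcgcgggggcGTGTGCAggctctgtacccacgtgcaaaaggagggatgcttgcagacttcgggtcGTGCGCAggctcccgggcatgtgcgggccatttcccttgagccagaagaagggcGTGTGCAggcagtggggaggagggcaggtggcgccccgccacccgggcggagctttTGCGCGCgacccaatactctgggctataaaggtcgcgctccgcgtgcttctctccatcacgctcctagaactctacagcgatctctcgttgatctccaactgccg

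Both strands were searched. Mt2A held 4 metal response cores, where 24.2% of 33469 promoters of this length held at least 1 and 0.439% held 4 or more, and Serpina3n held 0. The STAT letters were found once in Serpina3n, as in 8.87% of promoters with at least 1, and not in Mt2A. An AP-1 element, TGANTCA, was found once in Mt2A (7.33% of promoters hold at least 1) and not in Serpina3n, and the letters of a palindromic glucocorticoid response element were in neither window (0.0149% of promoters hold them). These matches describe the letters of the windows and were not set against the ratios.

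Serpina3n lay above 0 on each of its 23 arrays and was highest in SS at 3 days and in SS-13BN/Mcw overnight. In SS at 3 days pairs 1 and 2 stood at 0.97 and 0.78, and pair 3 had only 1 of its 2 arrays, at 0.17. The group mean over the 2 complete pairs was 0.88 ± 0.13 (SD), and it was 0.64 ± 0.42 (SD, n = 3) with the single array of pair 3, so that the place of this group at the top rests on leaving that array out.

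In SS overnight the pairs of Serpina3n stood at 0.91, 0.53 and 0.52 (mean 0.65 ± 0.22, SD, n = 3). SS-13BN/Mcw at 3 days had the lowest values, at 0.40, 0.22 and 0.099 (mean 0.24 ± 0.15, SD, n = 3), and SS-13BN/Mcw overnight stood at 0.49, 0.66 and 1.08 (mean 0.74 ± 0.31, SD, n = 3). The pairs of the 3 higher groups overlapped one another, and those of SS-13BN/Mcw at 3 days lay below all of them, apart from the single array of SS pair 3. Over all probes, complete pairs of that group lay below those of SS at 3 days for 8.37%. They lay below those of SS-13BN/Mcw overnight for 11.7%, and the share against SS overnight was not computed. Among all probes with at least 2 pairs, 1 of 883 had a higher mean than Serpina3n in SS at 3 days, 9 of 1139 in SS overnight, 40 of 907 in SS-13BN/Mcw at 3 days and 2 of 1100 in SS-13BN/Mcw overnight.

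Clu was positive in 3 groups and near 0 in the fourth. Its pairs stood at 0.51, 0.32 and 0.21 in SS at 3 days (mean 0.34 ± 0.15, SD, n = 3) and at 0.79, 0.14 and 0.40 in SS overnight (mean 0.44 ± 0.33, SD, n = 3). In SS-13BN/Mcw they stood at 0.10, -0.11 and -0.079 at 3 days (mean -0.029 ± 0.12, SD, n = 3) and at 0.59, 0.69 and 0.41 overnight (mean 0.56 ± 0.14, SD, n = 3). SS-13BN/Mcw at 3 days was the 1 group with pairs on both sides of 0, and it overlapped no other group. Over all probes, its pairs lay below those of SS at 3 days for 8.37%. They lay below those of SS-13BN/Mcw overnight for 11.7%, and the share against SS overnight was not computed. The mean of Clu had 518 of 907 probes above it in that group, against 22 of 1100 in SS-13BN/Mcw overnight, 40 of 883 in SS at 3 days and 31 of 1139 in SS overnight.

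Mt2A was positive in 12 of 12 pairs. Over all probes, every measured pair lay above 0 for 15.2% in SS at 3 days, 22% in SS overnight, 22.1% in SS-13BN/Mcw at 3 days and 30.4% in SS-13BN/Mcw overnight. Its pairs stood at 0.35, 0.096 and 0.46 in SS at 3 days (mean 0.30 ± 0.19, SD, n = 3) and at 0.61, 0.45 and 0.65 in SS overnight (mean 0.57 ± 0.10, SD, n = 3). In SS-13BN/Mcw they stood at 0.20, 0.36 and 0.34 at 3 days (mean 0.30 ± 0.084, SD, n = 3) and at 0.28, 0.62 and 0.22 overnight (mean 0.37 ± 0.21, SD, n = 3). SS overnight had the highest mean, and its lowest pair lay below the highest pairs of SS at 3 days and of SS-13BN/Mcw overnight. In SS-13BN/Mcw at 3 days, where Clu was near 0, the mean of Mt2A had 19 of 907 probes above it.

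**Figure D1:**
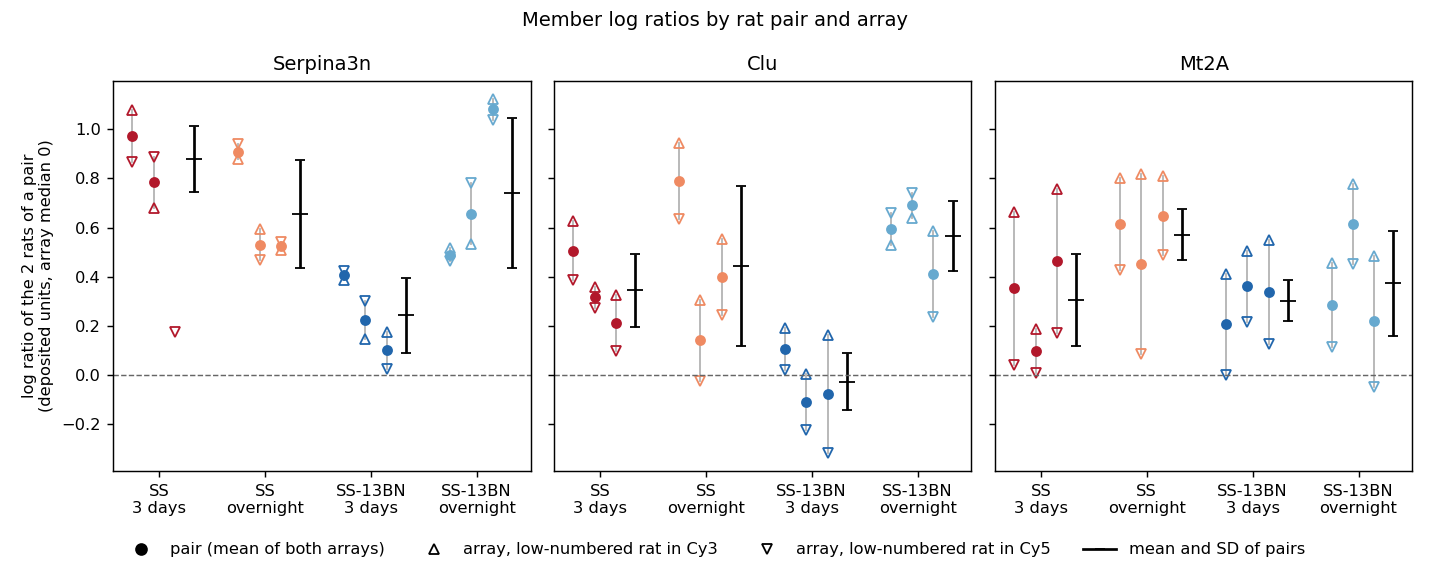
Log ratios of Serpina3n, Clu and Mt2A by group (horizontal axis), in deposited units with the array median at 0 (vertical axis). Filled circles are rat pairs, open triangles the arrays of each orientation, and bars the mean and SD of pairs. Serpina3n and Clu are lowest in SS-13BN/Mcw at 3 days (means 0.24 and -0.029), while the means of Mt2A run between 0.30 and 0.57, and the lone triangle of Serpina3n at 0.17 is the array left out of its mean.

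The 2 arrays of a pair, in which the dyes are exchanged, give each gene a reading apiece. The mean of both entered the choice of members, and their difference did not. For Serpina3n both orientations read alike. The difference between the array with the low-numbered rat in Cy3 and the array with it in Cy5 averaged -0.010 ± 0.15 (SD, 11 pairs) and was positive in 5 of 11 pairs. The readings of the 2 arrays correlated at r = 0.887 over pairs, which share rats between times.

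Mt2A was read higher in one orientation throughout. It averaged 0.60 ± 0.20 on the 12 arrays with the low-numbered rat in Cy3 and 0.17 ± 0.19 on the 12 with it in Cy5 (SD), with a difference of 0.43 ± 0.16 (SD) that was positive in 12 of 12 pairs. This was a common feature of the table, since 265 of 771 probes with at least 11 complete pairs (34.4%) had 1 sign of this difference in all of them, and 19.6% of probes had a larger one. The second orientation alone left Mt2A near 0 at 3 days, at 0.072 ± 0.087 in SS and 0.11 ± 0.11 in SS-13BN/Mcw (SD, n = 3 each). Both arrays of a pair still varied together (r = 0.663 over 12 pairs).

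Clu lay between these. It averaged 0.43 ± 0.26 on arrays with the low-numbered rat in Cy3 and 0.23 ± 0.34 on those with it in Cy5 (SD, n = 12 each), with a difference of 0.21 ± 0.18 (SD) that was positive in 10 of 12 pairs, and r over pairs was 0.851. SS-13BN/Mcw at 3 days was its lowest group in both orientations, at 0.12 ± 0.10 and -0.18 ± 0.17 (SD, n = 3 each). A dye difference of the same size in each orientation cancels in the mean of both. If arrays were turned in sign by dye, Serpina3n would stand between -0.018 and 0.0054 in all 4 groups.

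**Figure D2:**
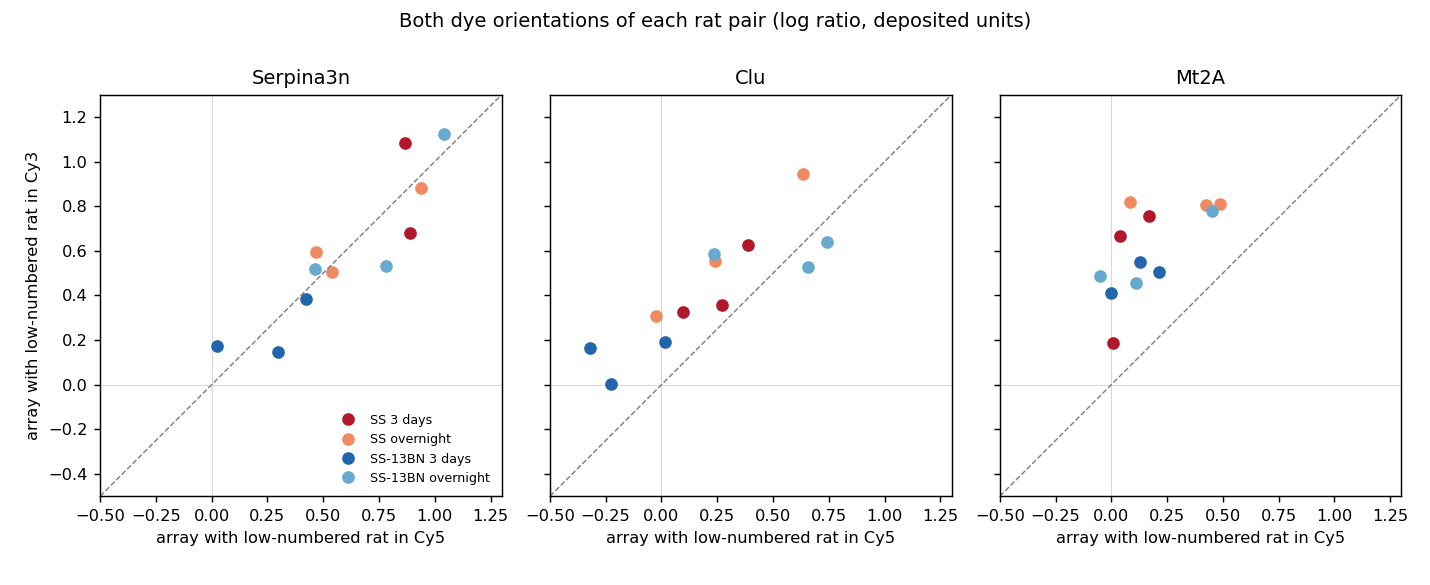
Log ratio on the array with the low-numbered rat in Cy3 (vertical) against the array with it in Cy5 (horizontal) for each rat pair, in deposited units, coloured by group, with the line of equal values dashed. Serpina3n lies along that line (mean difference -0.010), Clu mostly above it (0.21), and Mt2A above it in 12 of 12 pairs (0.43).

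The comparison of strains at 3 days asks whether the salt response of the kidney differs with chromosome 13 once the diet has lasted for days. Serpina3n was chosen in part for its values in SS at 3 days, so its difference, interval and p here are not independent of that choice. Serpina3n was higher by 0.64 ± 0.18 (SE, 95% interval 0.23 to 1.04) in SS than in SS-13BN/Mcw, with means of 0.88 in SS and 0.24 in SS-13BN/Mcw. Clu was higher in SS by 0.37 ± 0.15 (SE, 95% interval 0.042 to 0.71), with means of 0.34 in SS and -0.029 in SS-13BN/Mcw. Neither passed the test over 824 probes in limma (adjusted p = 0.299 for Serpina3n and 0.528 for Clu, unadjusted p = 0.00509 and 0.0304). For both, the complete pairs of SS lay above all pairs of SS-13BN/Mcw, as happened in that direction for 8.37% of probes and in either for 15.8%. With the single array of SS pair 3 kept, the groups of Serpina3n overlapped and the difference was 0.40 ± 0.21 (SE, adjusted p = 0.611 in limma). The 95% interval then held 0 (unadjusted p = 0.0808 in limma). Mt2A differed by 0.0033 ± 0.13 (SE), with means of 0.30 in SS and 0.30 in SS-13BN/Mcw and a 95% interval from -0.27 to 0.28, which leaves room for differences of either sign (adjusted p = 0.995 in limma).

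Overnight the strains were set against each other in the same way, and all members had intervals that hold 0. Serpina3n differed by -0.088 ± 0.16 (SE, 95% interval -0.45 to 0.27), with means of 0.65 in SS and 0.74 in SS-13BN/Mcw. Clu differed by -0.12 ± 0.15 (SE, 95% interval -0.45 to 0.21), with means of 0.44 in SS and 0.56 in SS-13BN/Mcw. For Mt2A the difference was 0.20 ± 0.13 (SE, 95% interval -0.081 to 0.48), with means of 0.57 in SS and 0.37 in SS-13BN/Mcw. Pair values of the strains overlapped for each of them, while those of 10.9% of probes did not, and adjusted p in limma was 0.995, 0.995 and 0.94 over 1053 probes. Without pair 3 of SS-13BN/Mcw the difference of Serpina3n was 0.082, and without pair 2 of SS that of Clu was 0.029, so the sign of either rests on a single pair.

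The time comparison asks whether the response at 3 days is that of the first night. In SS-13BN/Mcw both Serpina3n and Clu were lower at 3 days. Both were chosen for positive values in SS-13BN/Mcw overnight, so the size, interval, rank and p of these differences are not independent of that choice. Clu differed by -0.59 ± 0.15 (SE, 95% interval -0.93 to -0.26), with means of -0.029 at 3 days and 0.56 overnight, and ranked as number 6 of 897 probes by p, but did not pass (adjusted p = 0.276 in limma, 0.0911 where the low-numbered rat was a block; unadjusted p = 0.00219). Serpina3n differed by -0.50 ± 0.16 (SE, 95% interval -0.86 to -0.14), with means of 0.24 at 3 days and 0.74 overnight (adjusted p = 0.359 in limma, unadjusted p = 0.0111). For both genes each pair at 3 days lay below each overnight pair, as happened in that direction for 11.7% of probes and in either for 22.7%. Mt2A differed by -0.071 ± 0.13 (SE, 95% interval -0.35 to 0.21), and its pairs overlapped (adjusted p = 0.837 in limma).

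In SS rats the interval of the time difference held 0 for all members. Serpina3n differed by 0.22 ± 0.18 (SE, 95% interval -0.18 to 0.63), with means of 0.88 at 3 days and 0.65 overnight, and by -0.011 ± 0.21 (SE) with the single array of pair 3 kept. Clu differed by -0.098 ± 0.15 (SE, 95% interval -0.43 to 0.24). For Mt2A the difference was -0.27 ± 0.13 (SE, 95% interval -0.55 to 0.012), with means of 0.30 at 3 days and 0.57 overnight. Adjusted p in limma was 0.988 for each over 880 probes, and the pairs of both times overlapped for all 3 genes, while those of 7.5% of probes did not.

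Whether the time difference itself differed between strains was tested after the values had been seen. The time difference of SS minus that of SS-13BN/Mcw was 0.73 ± 0.25 (SE) for Serpina3n, 0.49 ± 0.22 (SE) for Clu and -0.20 ± 0.18 (SE) for Mt2A, and none passed (adjusted p = 0.972 for each in limma over 822 probes; unadjusted p = 0.0131, 0.0403 and 0.297). With the single array of pair 3 kept the value of Serpina3n was 0.49 ± 0.30 (SE). In each of the strain and time comparisons 0 probes of the whole table passed in limma, and the share with an unadjusted p under 0.05 was 8.37% between strains at 3 days, 5.03% between strains overnight, 11.3% between times in SS-13BN/Mcw, 1.93% between times in SS and 2.43% for the strain difference of the time differences.

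**Figure D3:**
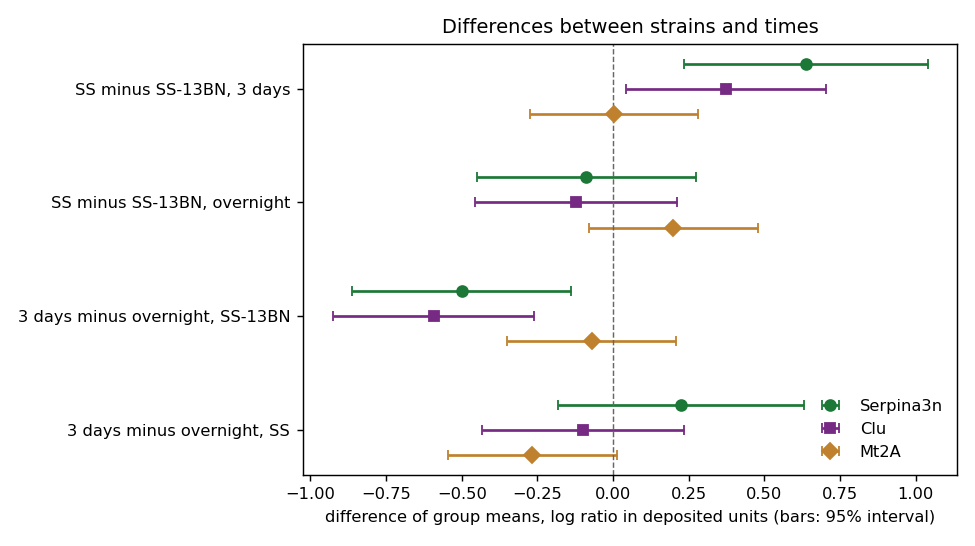
Differences of group means for Serpina3n, Clu and Mt2A (horizontal axis, deposited log-ratio units) for the strain and time comparisons (vertical axis), with 95% intervals as bars. The intervals of Serpina3n and Clu exclude 0 between strains at 3 days (0.64 and 0.37) and between times in SS-13BN/Mcw (-0.50 and -0.59), though none passed adjustment over all probes. With the single array of SS pair 3 kept, the strain difference of Serpina3n at 3 days was 0.40 ± 0.21 (SE), and its interval held 0.

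Over rat pairs the 3 genes were not one pattern. Serpina3n and Clu correlated at r = 0.708 (11 pairs), Clu and Mt2A at r = 0.38 (12 pairs), and Serpina3n and Mt2A at r = -0.0132 (11 pairs). Pairs of a group share their condition and pairs of a strain share rats, so these coefficients describe the 12 pairs only.

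Of 666 genes with at least 10 pairs shared with Serpina3n, the 5 with the highest r were Nfkb1, an NF-kappa-B subunit (0.947), Ptpmt1, a mitochondrial phosphatase (0.935), Pdgfra, a growth factor receptor of fibroblasts (0.923), Dcn, the collagen-binding proteoglycan decorin (0.918), and Serpinh1, a collagen chaperone of the serpin family (0.912), where the highest 1 percent began at 0.877. Dcn averaged 0.40 ± 0.78 in SS at 3 days, 0.38 ± 0.41 in SS overnight, -0.35 ± 0.15 in SS-13BN/Mcw at 3 days and 0.45 ± 0.51 in SS-13BN/Mcw overnight (SD, n = 3 each). In SS pair 3 at 3 days, where Serpina3n had its single array at 0.17, Dcn stood at -0.42 and Pdgfra at -0.43, against 1.13 and 1.27 in pair 1. Serpinh1, Ptpmt1 and Nfkb1 stood at 0.39, 0.16 and -0.11 in that pair 3, against 0.86, 0.62 and 0.30 in pair 1. Serpinh1 stood at 0.60 ± 0.24 and 0.55 ± 0.18 in SS at 3 days and overnight and at 0.052 ± 0.074 and 0.54 ± 0.15 in SS-13BN/Mcw at 3 days and overnight (SD, n = 3 each).

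Markers of fibroblasts and matrix, a list that holds Dcn and Pdgfra, varied over the same pairs. Of 14 listed 8 were measured, and the mean of the 5 with at least 10 pairs ran between 0.060 and 1.04 in SS at 3 days and between 0.28 and 0.95 in SS overnight. In SS-13BN/Mcw it ran between -0.14 and -0.073 at 3 days and between 0.33 and 0.86 overnight. Within each group but SS-13BN/Mcw at 3 days the pair with the highest mean of these markers was also the highest pair of Serpina3n. Dcn and Pdgfra are in this mean and were named for their r to Serpina3n, so part of the match follows from that choice. Of 7 smooth muscle markers listed 6 were measured, and 2, Tagln and Des, had at least 10 pairs. Their mean was highest in the highest pair of Serpina3n in all 4 groups. There it was 0.64, 0.94, 0.10 and 0.85 in SS at 3 days and overnight and SS-13BN/Mcw at 3 days and overnight. The 2 markers were unlike in level, with Tagln at 0.83 ± 0.66 and Des at -0.019 ± 0.26 in SS at 3 days (SD, n = 3 each). The 1 marker of endothelium peaked in that pair in each group but SS-13BN/Mcw at 3 days. The share of all probes that peak in the same pairs was not computed. The part of these lists in the values of Serpina3n was not tested. For leukocytes 3 of 16 markers were measured and none had 10 pairs, so no mean by pair was taken. Cd53 stood at 0.37 ± 0.25 in SS at 3 days and 0.45 ± 0.40 in SS overnight (SD, n = 3 each). In SS-13BN/Mcw overnight Cd53 stood at 0.21 ± 0.14 (SD, n = 2). C1qb stood at 0.28 ± 0.10 in SS at 3 days (SD, n = 2) and 0.33 ± 0.47 in SS overnight (SD, n = 3). None of these passed, and 0 leukocyte markers were tested in SS-13BN/Mcw at 3 days.

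Of 705 genes the 5 with the highest r to Clu were Rpn2, a subunit of the oligosaccharyltransferase that glycosylates new proteins (0.933), Tsc22d1, a transcriptional regulator (0.799), Ssr4, a subunit of the translocon-associated complex (0.798), Timp1, an inhibitor of metalloproteinases (0.78), and Sqle, an enzyme of cholesterol synthesis (0.78), where the highest 1 percent began at 0.757. Rpn2 stood at 0.089 ± 0.037 in SS at 3 days, 0.12 ± 0.068 in SS overnight, -0.019 ± 0.051 in SS-13BN/Mcw at 3 days and 0.0996 ± 0.029 in SS-13BN/Mcw overnight (SD, n = 3 each). Timp1 had a value in only 1 pair of SS at 3 days, and Tsc22d1 stood at 0.045 ± 0.069 in SS-13BN/Mcw at 3 days against 0.57 ± 0.23 overnight (SD, n = 3 each).

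The 5 genes with the highest r to Mt2A were the peptidase Thop1 (0.828), the acyl-CoA thioesterase Acot1 (0.795), annexin A1 (Anxa1, 0.792), Mt3, a metallothionein known mainly from brain (0.751), and Tsc22d1 (0.721), where the highest 1 percent of 705 genes began at 0.686. Mt3 averaged 0.38 ± 0.40 in SS at 3 days, 0.48 ± 0.25 in SS overnight, 0.47 ± 0.13 in SS-13BN/Mcw at 3 days and 0.35 ± 0.35 in SS-13BN/Mcw overnight (SD, n = 3 each). Metallothionein transcripts are alike, and cDNA probes can bind related ones, and binding of both transcripts by either probe was not tested. The related Serpina3c had values on only 6 arrays and was not compared with Serpina3n.

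**Figure D4:**
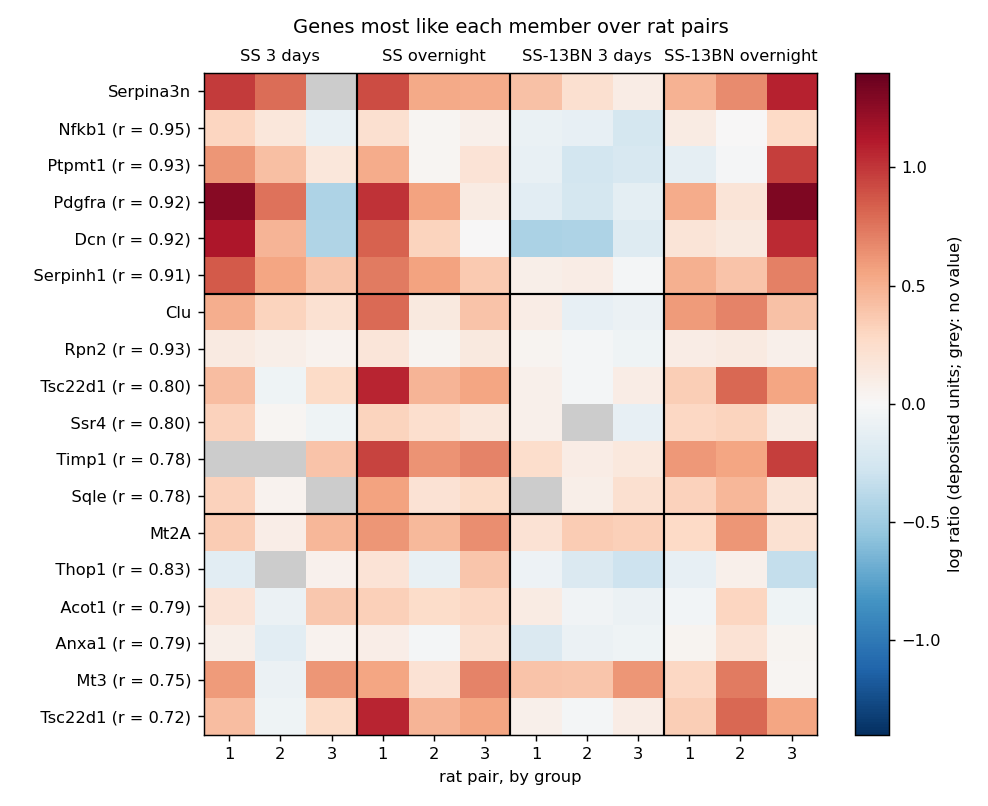
Pair values (colour, log ratio in deposited units, grey where a pair lacks a value) of each member and of the 5 genes with the highest Pearson r to it, with rat pairs by group along the horizontal axis and genes down the vertical axis. Red is positive and blue is negative, and the genes like Serpina3n turn blue or pale in SS-13BN/Mcw at 3 days, where Dcn averages -0.35, while Mt2A and Mt3 stay positive at 0.30 and 0.47.

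Other genes of injury and repair, from a list that leaves out the members, lay on the positive side for 12 of 19 tested in SS at 3 days, 16 of 21 in SS overnight, 13 of 19 in SS-13BN/Mcw at 3 days and 15 of 19 in SS-13BN/Mcw overnight. Of 50 listed 24 were measured. Of 19 tested in SS at 3 days 0 passed, of 21 in SS overnight 2 positive passed, of 19 in SS-13BN/Mcw at 3 days 0, and of 19 in SS-13BN/Mcw overnight 5, all positive, by limma's adjusted p. At an unadjusted p under 0.05 in limma they were 1, 9, 0 and 12, beside 12.2%, 15.3%, 16.6% and 30.5% of all probes. Over all probes the share with an adjusted p under 0.05 on the positive side was 0.34%, 0.966%, 0.662% and 3.18% in that order of groups. The list's medians were 0.096, 0.17, 0.056 and 0.27, beside -0.0054, 0.0071, -0.003 and -0.0016 over all probes.

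Timp1 and Vcam1, an adhesion molecule for leukocytes, passed overnight in both strains. Timp1 stood at 0.76 ± 0.17 in SS overnight, at 0.16 ± 0.074 in SS-13BN/Mcw at 3 days and at 0.71 ± 0.23 in SS-13BN/Mcw overnight (SD, n = 3 each; adjusted p = 0.0109, 0.408 and 0.00627 in limma). Vcam1 stood at 0.59 ± 0.18 in SS overnight and at 0.52 ± 0.066 in SS-13BN/Mcw overnight (SD, n = 3 each; adjusted p = 0.0316 and 0.0191 in limma). In SS at 3 days Vcam1 stood at 0.096 ± 0.36 (SD, n = 2, adjusted p = 0.824 in limma). Lgals3, a galectin of macrophages and injured epithelium, passed in SS-13BN/Mcw overnight at 0.37 ± 0.073 (SD, n = 3, adjusted p = 0.0107 in limma), and so did S100a10, a partner of annexin A2, at 0.31 ± 0.098 (SD, n = 3, adjusted p = 0.0207 in limma). In SS overnight Lgals3 and S100a10 were also positive, at 0.19 ± 0.13 and 0.25 ± 0.15 (SD, n = 3 each), but did not pass (adjusted p = 0.224 and 0.14 in limma). The injury marker Lcn2 had values on only 2 arrays.

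Few acute-phase genes could be tested beside Serpina3n. Of 45 listed 25 were measured, and of those tested 0 of 7 passed in SS at 3 days, 1 of 11 in SS overnight, 0 of 5 in SS-13BN/Mcw at 3 days and 3 of 9 in SS-13BN/Mcw overnight, by limma's adjusted p. On the positive side these were 1 of 11 in SS overnight, where 0.966% of all probes passed, and 2 of 9 in SS-13BN/Mcw overnight, where 3.18% did. At an unadjusted p under 0.05 in limma they were 2, 4, 0 and 4 in the order of groups, beside 12.2%, 15.3%, 16.6% and 30.5% of all probes. The 3 that passed in SS-13BN/Mcw overnight were Timp1 and the interleukin 6 receptor Il6r, at 0.34 ± 0.11 (SD, n = 3, adjusted p = 0.0301 in limma), on the positive side and angiotensinogen (Agt), at -0.72 ± 0.62 (SD, n = 3, adjusted p = 0.0419 in limma), on the negative side, where 7.36% of all probes passed. Il6r stood at 0.19 ± 0.17 in SS at 3 days and 0.23 ± 0.13 in SS overnight (SD, n = 3 each). It stood at 0.12 ± 0.18 in SS-13BN/Mcw at 3 days (SD, n = 3), and none of these passed. Among protease inhibitors 14 of 48 were measured, and all that were tested lay on the positive side, 4 of 4, 6 of 6, 5 of 5 and 5 of 5 in the same order of groups. Their medians were 0.24, 0.24, 0.11 and 0.31, beside -0.0054, 0.0071, -0.003 and -0.0016 over all probes. The share of all probes on that side was not computed. Groups repeat genes of this list, and the times of a strain share rats, so these counts are not independent. Timp1 and Serpinh1 were those past the threshold, both overnight in each strain and Serpinh1 in SS at 3 days. They made 1 of 4, 2 of 6, 0 of 5 and 2 of 5 tested in that order, beside 0.34%, 0.966%, 0.662% and 3.18% of all probes on the positive side, with 2, 2, 0 and 3 at an unadjusted p under 0.05 in limma.

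Genes that handle metals and oxidants were measured for 18 of 47 listed. By limma's adjusted p 0 of 15 passed in SS at 3 days, 0 of 16 in SS overnight, 0 of 12 in SS-13BN/Mcw at 3 days and 3 of 15 in SS-13BN/Mcw overnight, all negative, where 7.36% of all probes passed on that side. At an unadjusted p under 0.05 in limma they were 2, 2, 4 and 6 in the order of groups, beside 12.2%, 15.3%, 16.6% and 30.5% of all probes. The 3 past the adjusted threshold were Gpx4, which reduces lipid peroxides, at -0.43 ± 0.16 (adjusted p = 0.0207 in limma), and Gss and Gclm, which take part in glutathione synthesis, at -0.53 ± 0.45 and -0.69 ± 0.44 (adjusted p = 0.0262 and 0.0317 in limma; SD, n = 3 each). In SS at 3 days Gpx4 stood at -0.080 ± 0.16 and in SS overnight at -0.086 ± 0.22 (SD, n = 3 each). The medians of the list were -0.033, 0.051, -0.059 and -0.070 in SS at 3 days, SS overnight, SS-13BN/Mcw at 3 days and SS-13BN/Mcw overnight. Mt3 did not pass in any group (adjusted p between 0.133 and 0.332 in limma).

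Lrp2, or megalin, a receptor that takes up filtered proteins in the proximal tubule and binds clusterin, stood at -0.31 ± 0.81 in SS at 3 days (n = 2), -0.57 ± 0.095 in SS overnight (n = 3), -1.01 ± 0.036 in SS-13BN/Mcw at 3 days (n = 2) and -1.33 ± 0.69 in SS-13BN/Mcw overnight (n = 3, SD), and it passed in SS-13BN/Mcw overnight (adjusted p = 0.01 in limma). Of 41 listed ligands, receptors and heat-shock genes 8 were measured and 6 tested in each group, and Lrp2 was the 1 of 6 that passed in SS-13BN/Mcw overnight, where 7.36% of all probes passed on the negative side, against 0 of 6 in each other group. At an unadjusted p under 0.05 in limma they were 1, 2, 2 and 2 in the order of groups, beside 12.2%, 15.3%, 16.6% and 30.5% of all probes. Over 10 proximal tubule markers the mean of a pair ran between -0.99 and -0.20 in SS at 3 days and between -0.75 and -0.36 in SS overnight. In SS-13BN/Mcw it ran between -1.06 and -0.85 at 3 days and between -1.75 and -0.70 overnight. The means of SS-13BN/Mcw at 3 days, where Clu was near 0, lay within the range of SS-13BN/Mcw overnight, where Clu was highest, and their part in the values of Clu was not tested. Apolipoprotein E (Apoe), named after its values were seen, had the order of Clu, at 0.54 ± 0.63, 0.60 ± 0.49, -0.034 ± 0.13 and 0.67 ± 0.50 in SS at 3 days, SS overnight, SS-13BN/Mcw at 3 days and SS-13BN/Mcw overnight (SD, n = 3 each), and did not pass in any of them (adjusted p between 0.0812 and 0.954 in limma).

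Among glucocorticoid-responsive genes, of which 14 of 34 were measured, the genes past the threshold lay on both sides. In SS-13BN/Mcw at 3 days the sodium channel subunit Scnn1a stood at 0.28 ± 0.088 and the sodium pump subunit Atp1b1 at 0.41 ± 0.22, and Hsd11b1, which regenerates active glucocorticoid, stood at -1.10 ± 0.14 (SD, n = 3 each; adjusted p = 0.0293, 0.0351 and 0.00853 in limma, where 0.662% of all probes passed on the positive side and 2.32% on the negative side). These were 3 of 10 tested. In SS-13BN/Mcw overnight glutamine synthetase (Glul), at -0.64 ± 0.50 (SD, n = 3, adjusted p = 0.0197 in limma), and Agt passed on the negative side, 2 of 12 tested, where 7.36% of all probes passed on that side. By limma's adjusted p 0 of 11 passed in SS at 3 days and 0 of 12 in SS overnight, where 0.176% of all probes passed on the negative side. At an unadjusted p under 0.05 in limma they were 2 of 11, 0 of 12, 6 of 10 and 5 of 12 in SS at 3 days, SS overnight, SS-13BN/Mcw at 3 days and SS-13BN/Mcw overnight, beside 12.2%, 15.3%, 16.6% and 30.5% of all probes.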

How the data were processed

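Kidney RNA of 24 rat arrays with 2 channels was analysed. In the deposited table each probe has 1 log ratio on an array, and array means lay within 0.00082 of 0. What the authors did to reach these values, the log base and the numerator are not given in the labels or the file. Gene names came from the array annotation, updated by gene number.

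Arrays were centred on their median, and both orientations of a pair were averaged where both had a value. Arrays were not turned in sign by dye: after subtracting each probe's mean over the remaining arrays of that orientation, r between swapped arrays ran from 0.169 to 0.825 and was above 0 for 12 of 12 pairs. Without that subtraction r was below 0 for 4 pairs (lowest -0.0595).

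limma 3.58.1 in R 4.3.3 was fitted to all 12 pairs with 1 coefficient per group (eBayes, two-sided, Benjamini-Hochberg over all probes tested, threshold 0.05). A probe needed at least 2 of 3 pairs in each group compared. The fit was tested on simulated data drawn with independent pairs. That could not show how the tests between times behave where pairs share rats. A p-value here reflects only how rat pairs vary. Replicates were paired by the low rat number that titles repeat at both times. Deviations of same-numbered pairs correlated between times at r from 0.259 to 0.62 for 5 of the 6 rats and at -0.0241 for rat 2 of SS, and blocking on that rat (duplicateCorrelation, statmod 1.5.0) was an alternative.

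Likeness is Pearson's r over at least 10 pairs. From each list up to 4 genes past the threshold in any group were named, or the 2 with the smallest p. The members and lists were chosen with earlier results of these data known. Other alternatives were values as deposited, arrays scaled to one spread, turning by dye, single orientations, all 3 pairs required and leaving out each pair. Background correction and slides as a block could not be tried on 1 ratio per probe and 1 array per slide. Figures were drawn with matplotlib 3.10.9.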

Additional observations from a re-analysis of the deposited data

How the results depend on the processing

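No difference of a member passed the threshold in any of the settings tried, and 242 of 261 values kept their sign. No paired call changed: with the low-numbered rat as a replicate block Serpina3n differed by 0.62 and Clu by 0.37 between strains at 3 days. Swapped arrays varied the same way in 12 of 12 pairs, so turning by dye leaves the difference between orientations and removes what both share. Turned values are therefore no second estimate of the ratio between rats. With arrays turned in sign by dye, levels of Serpina3n stood at 0.0015, 0.0054, -0.0066 and -0.018 in SS at 3 days, SS overnight, SS-13BN/Mcw at 3 days and SS-13BN/Mcw overnight. Clu stood at 0.093, 0.15 and 0.019 in SS at 3 days and SS-13BN/Mcw at 3 days and overnight, and Mt2A at 0.24 and 0.19 in SS overnight and SS-13BN/Mcw at 3 days. Turned differences changed sign for Serpina3n between strains overnight (0.023), between times in SS (-0.0039) and SS-13BN/Mcw (0.012) and between time differences (-0.015). They did so for Clu between strains at 3 days (-0.055) and overnight (0.14), between times in SS-13BN/Mcw (0.13) and between time differences (-0.19), and for Mt2A between time differences (0.0061). Turned counts of probes past the threshold were 344, 325, 299 and 309 in the 4 groups in that order, against 3, 13, 27 and 116. The turned counts are of probes that differ between orientations, not between the rats of a pair.

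Single orientations moved some levels by more than 1 SD. With the low-numbered rat in Cy5 Clu stood at -0.18 in SS-13BN/Mcw at 3 days, and Mt2A at 0.072, 0.33 and 0.11 in SS at 3 days, SS overnight and SS-13BN/Mcw at 3 days. With it in Cy3 Clu stood at 0.12 in SS-13BN/Mcw at 3 days, and Mt2A at 0.54, 0.81 and 0.49 in the same groups. Keeping pairs with 1 orientation, a setting chosen after seeing the data, gave 0.64 for Serpina3n in SS at 3 days, as did the arrays with that rat in Cy5 alone, which also take in the lone array of pair 3 (0.17) beside 0.87 and 0.89 in pairs 1 and 2. It turned its time difference in SS to -0.011 and gave 1 probe past the threshold between strains at 3 days. The strain difference of Mt2A at 3 days was -0.014 with values as deposited and -0.0088 with arrays scaled to one spread. Scaling gave 9 probes in SS at 3 days, 51 in SS overnight, 61 in SS-13BN/Mcw at 3 days and 7 between strains at 3 days, the block 5 and all 3 pairs required 1 in SS at 3 days. In single orientations the shifts of Clu and Mt2A restate the differences between orientations given above. The cause of the other shifts of Mt2A and of the counts was not tested.

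Without 1 pair, levels of Serpina3n ran from 0.78 to 0.97, 0.53 to 0.72, 0.16 to 0.31 and 0.57 to 0.87 in the 4 groups, those of Clu from 0.26 to 0.41, 0.27 to 0.59, -0.096 to 0.012 and 0.50 to 0.64, and those of Mt2A from 0.22 to 0.41, 0.53 to 0.63, 0.27 to 0.35 and 0.25 to 0.45. Overnight strain differences ran from -0.22 to 0.082 for Serpina3n and from -0.29 to 0.029 for Clu, the time difference of Clu in SS from -0.25 to 0.075 (positive without pair 1 of SS overnight), and that of Mt2A in SS-13BN/Mcw from -0.15 to 0.051 (positive without pair 2 overnight). The strain difference of Mt2A at 3 days ran from -0.077 to 0.11, negative without pair 1 or 3 of SS or pair 1 of SS-13BN/Mcw at 3 days. Probes past the threshold ran from 0 to 10 in SS at 3 days, 0 to 21 in SS overnight, 0 to 50 in SS-13BN/Mcw at 3 days and 12 to 144 in SS-13BN/Mcw overnight, and from 0 to 1 between strains at 3 days, between times in SS-13BN/Mcw and between time differences. Without a complete pair of SS at 3 days no difference of Serpina3n with that group could be fitted.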

Other observations

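Some genes ran opposite to the members over rat pairs, and these were named after their values were seen. Opposite to Clu were Cpt1b, the muscle form of the carnitine transferase of fatty acid oxidation (r = -0.849 over 11 pairs), Hpd, an enzyme of tyrosine breakdown (r = -0.837 over 12 pairs), and the sodium channel subunit Scnn1a (r = -0.821 over 12 pairs). Cpt1b averaged 0.15 in SS at 3 days, -0.17 in SS overnight, 0.47 in SS-13BN/Mcw at 3 days and -0.057 in SS-13BN/Mcw overnight. Opposite to Serpina3n was Aldh1a1, which makes retinoic acid (r = -0.845 over 11 pairs), at -0.17, -0.090, 0.16 and -0.036 in the same order of groups. Aqp1 (r = -0.844) and Exoc2 (r = -0.843) stood close to Aldh1a1, and the lowest r to Mt2A was that of Gprc5b (-0.782). SS-13BN/Mcw at 3 days was the group in which Cpt1b, Scnn1a and Aldh1a1 were highest and Serpina3n and Clu lowest. These genes were picked for a negative r over the same pairs, so this is not a separate result.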
